A study of Mus musculus with 19 samples.

Results

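The small nucleolar RNAs and small Cajal body RNAs of the mouse hippocampus were followed across 4 groups of libraries. The members were chosen by name and by their summed reads in these same libraries: genes with a symbol beginning Snora, Snord or Scarna and a number, and at least 950 reads over all 19 libraries. Of 70 genes with such a symbol, 12 reached the minimum, in a table of 55416 genes of which 32474 had a read. They were the small Cajal body RNAs Scarna10, Scarna13, Scarna2 and Scarna6, the box H/ACA RNAs Snora73a, Snora73b and Snora74a, and the box C/D RNAs Snord17, Snord15b, Snord94, Snord3b4 and Snord3a. The 12 held 99.4% of the reads of the 70 genes. Just inside the minimum stood Snord3a with 1133 reads and just outside it Snord22 with 522, and 51 of the 58 genes left out had fewer than 100 reads.

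The groups were EZH2nHom kainate (4 libraries), EZH2nHom saline (5), WT kainate (5) and WT saline (5), all from C57BL6 mice. EZH2nHom mice, EZH2(-/-);Syn1Cre(+/-), carried floxed EZH2 alleles deleted by Cre under the Synapsin1 promoter, which is active in neurons, and WT mice, EZH2(+/+);Syn1Cre(+/-), carried the same Cre, so no group was free of Cre. Kainate, a glutamate receptor agonist, was given in repeated low doses to bring on status epilepticus, the controls received saline by intraperitoneal injection, and the right hippocampus was taken 4 days later. The series asks what neuronal EZH2, the methyltransferase of the Polycomb complex that places a repressive mark on histone H3, does after seizures. The ages of the mice are not given in the sources used here. The labels number the libraries as replicates without naming the animals, so the p-values measure the spread between these samples.

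Small nucleolar RNAs are guides. Those with boxes C and D direct methylation of the ribose in ribosomal and spliceosomal RNA, and those with boxes H and ACA direct the change of uridine to pseudouridine, each inside a particle with its own core proteins. Small Cajal body RNAs carry one or both kinds of box and guide the modification of spliceosomal RNAs in the Cajal body, a nuclear body that is prominent in neurons. Most mammalian members are cut out of introns of a host gene, and a few, among them the U3 RNAs, have their own promoters.

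The sequences of 6 members are shown for reference: Scarna10 and Scarna2 stood in opposite directions between the genotypes, as did Snord17 and Snord94, and Snora73a and Snora73b are near-identical copies. A part of sequence in those directions was not tested. They are GENCODE M21 transcript sequences, written as DNA from 5′ to 3′. Of Scarna10 (325 bases, chromosome 6) the last 300 are given, and of Scarna2 (414 bases, chromosome 3) likewise the last 300. Capitals mark the box C core TGATGA and the box D core CTGA within the last 15 bases in Scarna and Snord genes, and the ACA that stands 3 bases before the end in Snora genes. The TGATGA of Scarna10 starts at position 7, ahead of the stretch shown.
Scarna10: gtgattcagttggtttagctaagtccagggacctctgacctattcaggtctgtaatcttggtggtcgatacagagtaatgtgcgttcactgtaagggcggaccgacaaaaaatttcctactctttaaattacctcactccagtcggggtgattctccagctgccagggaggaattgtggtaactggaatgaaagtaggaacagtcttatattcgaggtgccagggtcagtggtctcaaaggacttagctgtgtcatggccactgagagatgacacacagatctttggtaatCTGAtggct
Scarna2: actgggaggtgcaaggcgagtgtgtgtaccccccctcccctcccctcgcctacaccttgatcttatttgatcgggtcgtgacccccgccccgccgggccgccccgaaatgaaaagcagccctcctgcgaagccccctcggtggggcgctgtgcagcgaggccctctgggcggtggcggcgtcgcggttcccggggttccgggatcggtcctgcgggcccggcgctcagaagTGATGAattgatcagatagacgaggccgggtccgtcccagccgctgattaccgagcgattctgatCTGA
Snord17: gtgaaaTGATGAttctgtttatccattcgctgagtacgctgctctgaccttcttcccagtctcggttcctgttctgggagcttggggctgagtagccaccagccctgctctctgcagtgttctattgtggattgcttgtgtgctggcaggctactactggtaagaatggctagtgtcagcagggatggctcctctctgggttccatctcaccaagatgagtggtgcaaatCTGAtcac
Snord94: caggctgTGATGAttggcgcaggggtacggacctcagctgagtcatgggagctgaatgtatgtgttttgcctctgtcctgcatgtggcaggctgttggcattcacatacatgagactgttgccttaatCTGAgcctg
Snora73a: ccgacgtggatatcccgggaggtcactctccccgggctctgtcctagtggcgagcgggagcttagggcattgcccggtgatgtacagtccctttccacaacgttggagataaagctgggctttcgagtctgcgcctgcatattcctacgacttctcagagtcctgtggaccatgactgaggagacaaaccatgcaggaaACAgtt
Snora73b: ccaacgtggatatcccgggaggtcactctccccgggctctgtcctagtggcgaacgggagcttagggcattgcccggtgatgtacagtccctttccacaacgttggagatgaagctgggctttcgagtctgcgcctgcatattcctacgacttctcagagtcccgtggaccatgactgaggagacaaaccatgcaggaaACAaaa

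Both copies of Snora73 are 205 bases long and lie on chromosome 4, and they differed at 7 positions (96.6% identity), while the next most alike pair of members, Snora73a and Snord3a, had 54.0%. Reads from the copies may therefore have been split between them by the authors' counting, and their separate values are uncertain. Snord17 (238 bases, chromosome 2) and Snord94 (137 bases, chromosome 6) both hold a box C core near the start and a box D core near the end. Among the 1558 snoRNA and scaRNA genes of GENCODE M21, searched on the transcript strand, 26.5% held TGATGA, 30.9% held CTGA in the last 15 bases, and 19.3% held ACA 3 bases before the end. Of the 11 members with a sequence, 7 held TGATGA and the same number held the terminal CTGA, namely all Snord members with a sequence and Scarna10, Scarna2 and Scarna6. The terminal ACA was found in Scarna13, Snora73a and Snora73b. The looser H box, ANANNA, was in all 11 members and in 91.8% of the annotated genes.

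Libraries held 24496685 to 43948317 counted reads. Ezh2 itself did not check the labels, since its gene-level count does not separate the floxed part and other cells of the tissue keep the gene: it averaged 17.5 ± 2.40 CPM in EZH2nHom kainate, 13.6 ± 1.42 in EZH2nHom saline, 15.2 ± 4.53 in WT kainate and 11.2 ± 1.17 in WT saline libraries (SD), and it was not called between the genotypes. Neuronal markers (Snap25, 1539 CPM in EZH2nHom saline and 1196 in WT saline libraries) fitted the labelled tissue. The labels carry a sample code with a prefix that they leave unexplained. EZH2nHom and WT libraries had 0 prefixes in common, so genotype and whatever a prefix stands for cannot be told apart. EZH2nHom kainate and EZH2nHom saline libraries likewise had 0 in common. Kainate and prefix thus cannot be told apart in EZH2nHom libraries, nor in the difference of kainate responses between the genotypes. Reads of Y-linked genes were near 0 in 2 WT kainate, 2 WT saline and 1 EZH2nHom kainate libraries, and in no EZH2nHom saline library.

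Levels are given as CPM, read counts relative to library size, after scaling with TMM factors, which allow for differences in composition between libraries. Scarna10 held 63.3% of all member reads. Per kilobase of RNA, over all libraries, Scarna10 stood highest at 1170 CPM per kb, followed by Scarna13 at 347, Snora74a at 115 and Snora73a at 112, and Snord3a stood lowest at 8.58. The 12 members together averaged 831 ± 214 CPM in EZH2nHom kainate libraries, 895 ± 138 in EZH2nHom saline, 424 ± 117 in WT kainate and 320.1 ± 29.9 in WT saline libraries (SD). Without Scarna10 the sums were 222 ± 75.2, 227 ± 37.6, 239 ± 55.0 and 212 ± 10.2 CPM in the same order of groups, and the ranges of all 4 groups overlapped. The genotype difference in the sum thus lay in Scarna10, while other members differed in opposite directions that offset each other. After saline the Snora members summed to 72.6 ± 17.6 CPM in EZH2nHom and 37.98 ± 6.78 in WT libraries. The Snord members summed to 31.9 ± 6.8 and 16.9 ± 3.1 CPM. Against this, Scarna13 averaged 89.9 and 111 CPM and Scarna2 20.9 and 40.5 CPM, in the same order.

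**Figure D1:**
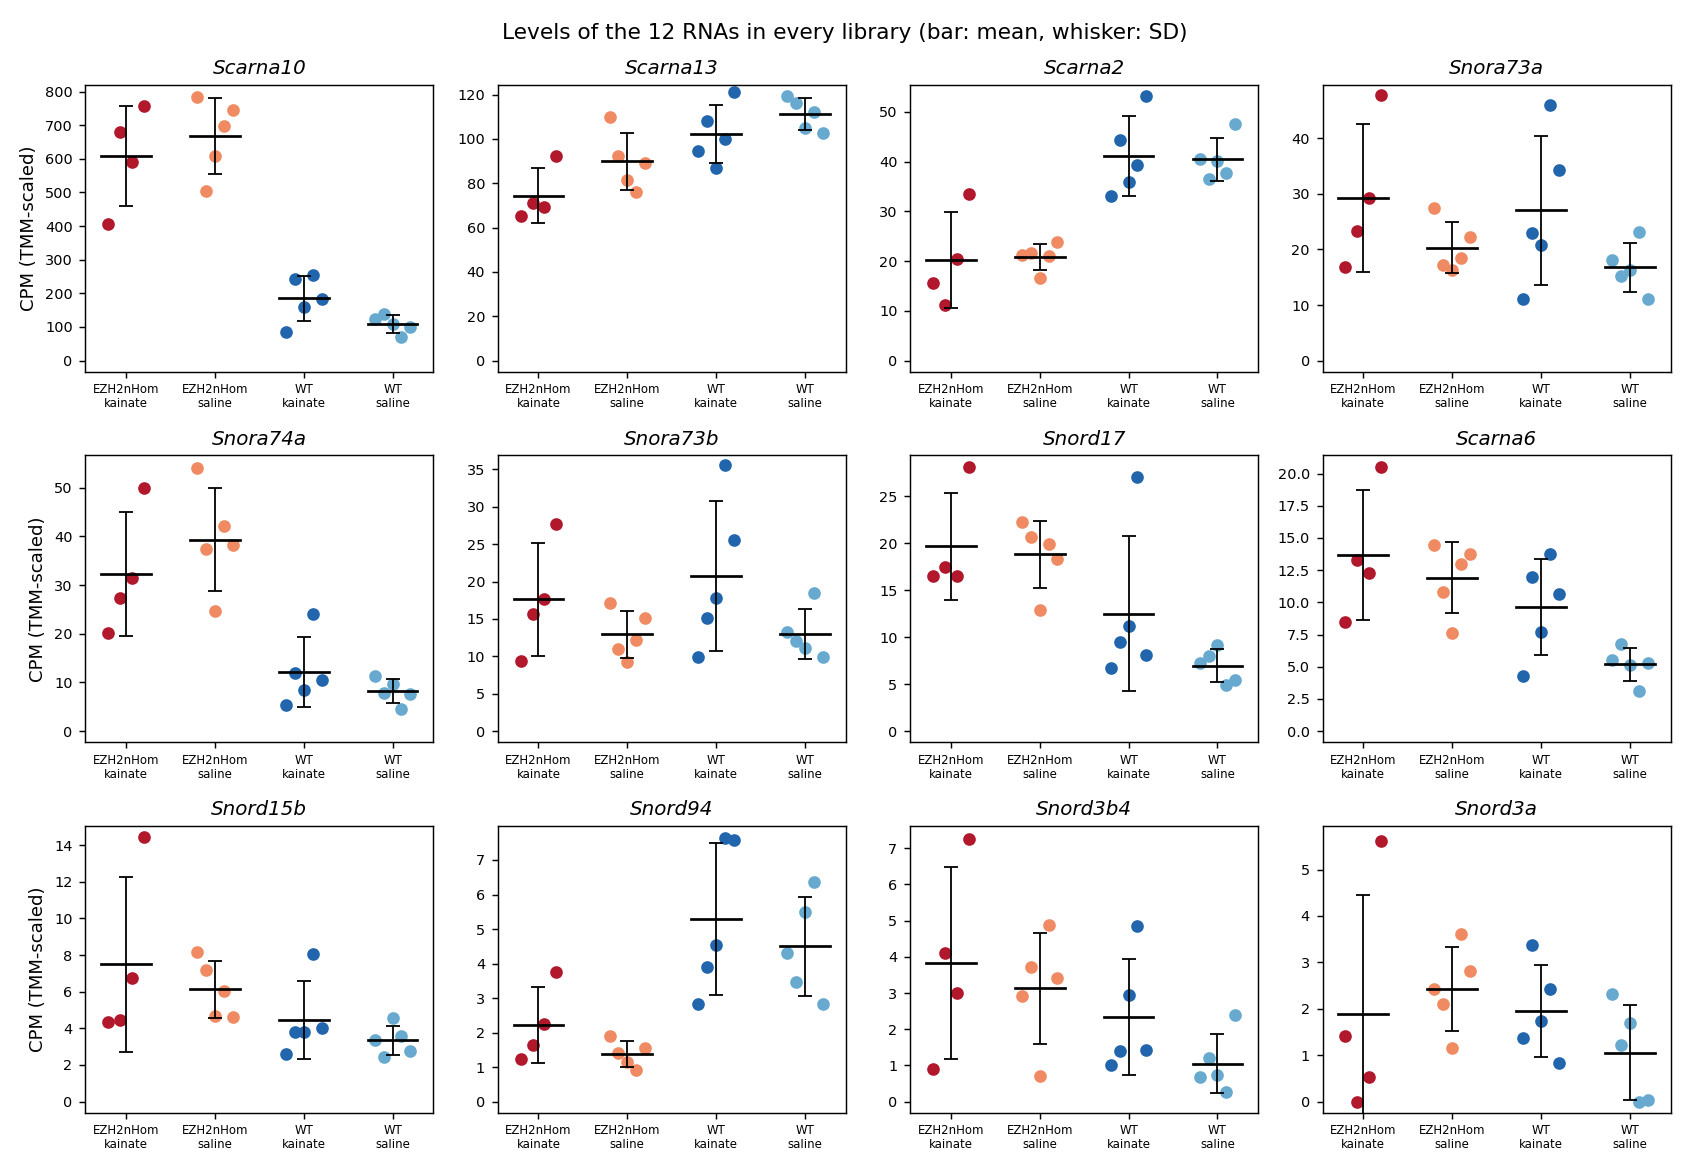
Level of each of the 12 RNAs in every library, in CPM on a linear axis that differs between panels; points are libraries, bars means and whiskers SD, with n = 4, 5, 5 and 5 from left to right. Scarna10 was above 400 CPM in the EZH2nHom libraries and at or below 254 CPM in the WT libraries, whereas Scarna2 and Snord94 were lower in EZH2nHom libraries.

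The first comparison asks how these RNAs differ between the genotypes without seizures. Between EZH2nHom saline and WT saline libraries, 4 of the 12 members were higher (Scarna10, Snora74a, Snord17 and Scarna6) and 2 lower (Scarna2 and Snord94) at an adjusted p under 0.05 in edgeR's quasi-likelihood test with Benjamini-Hochberg adjustment over 19234 genes. In this comparison 13.5% of all genes were called, 8.33% as higher and 5.16% as lower. The groups did not overlap in CPM for 5 members higher and 2 lower in EZH2nHom, against 12.9% and 8.42% of all genes. The median log2 change was 1.04 over the members and 0.02 over all genes tested. In bulk tissue, a change in the number of cells of a type and a change in RNA per cell cannot be told apart.

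Of the small Cajal body RNAs, Scarna10, whose human counterpart guides modification of the U5 spliceosomal RNA, differed most. It stood at 784, 503, 608, 698 and 746 CPM in EZH2nHom saline libraries 1 to 5, against 125, 138, 109, 70.6 and 99.8 CPM in WT saline libraries 1 to 5. Every EZH2nHom library was above every WT library, with a log2 change of 2.62 ± 0.25 (SE), 6.16-fold, and an adjusted p of 3.21e-06 in edgeR. Scarna6, which in human carries both kinds of box, had 14.4, 10.8, 7.61, 12.99 and 13.8 CPM in EZH2nHom saline, against 5.54, 6.79, 5.16, 3.12 and 5.26 CPM in WT saline libraries. The groups were again apart, and the log2 change was 1.21 ± 0.28 (adjusted p = 0.00782, edgeR).

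Scarna2, which guides ribose methylation of the U2 spliceosomal RNA in human, went the other way. It had 21.2, 21.6, 16.6, 21.1 and 23.8 CPM in EZH2nHom saline, against 40.5, 36.5, 40.1, 37.7 and 47.6 CPM in WT saline libraries. All EZH2nHom libraries were below all WT libraries, and the log2 change was -0.95 ± 0.20 (adjusted p = 0.00383, edgeR). Scarna13, a pair of H/ACA units in one RNA in human, had 109.9, 92.5, 81.7, 76.1 and 89.3 CPM in EZH2nHom saline, against 119.5, 116, 105, 112 and 103 CPM in WT saline libraries. These groups overlapped through EZH2nHom library 1, and the log2 change of -0.31 ± 0.11 was not called (adjusted p = 0.0739, edgeR), though 9 of 28 alternatives called it, among them the DESeq2 Wald test (adjusted p = 0.0358).

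Since these RNAs were picked for standing in opposite directions, the ratio of Scarna10 to Scarna2 reads only restates both differences, as a value within each library. It was 22.6 to 60.2 in EZH2nHom kainate, 23.2 to 36.9 in EZH2nHom saline, 2.61 to 6.46 in WT kainate and 1.88 to 3.80 in WT saline libraries. The lowest EZH2nHom library stood above the highest WT library after either treatment.

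**Figure D2:**
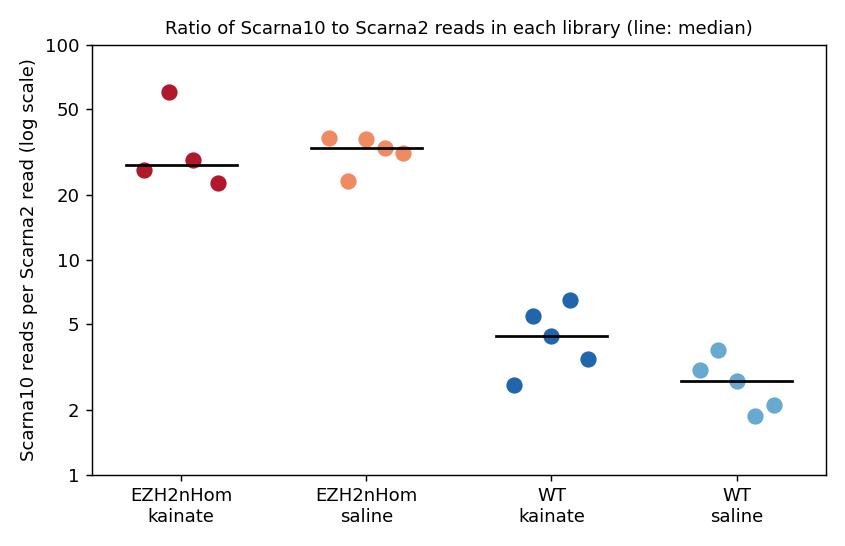
Scarna10 reads per Scarna2 read in each library, on a log axis, with the group median as a line; points are libraries (n = 4, 5, 5 and 5 from left to right). The 9 EZH2nHom libraries lie at 22.6 or above and the 10 WT libraries at 6.46 or below.

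Among the box H/ACA RNAs, Snora74a, a guide for the large-subunit ribosomal RNA in human, had 54.2, 37.5, 24.6, 42.2 and 38.2 CPM in EZH2nHom saline, against 11.3, 7.86, 9.77, 4.53 and 7.68 CPM in WT saline libraries. The groups did not overlap, and the log2 change was 2.26 ± 0.35, 4.79-fold (adjusted p = 0.000316, edgeR). Snora73a, which takes part in cleavage of the ribosomal RNA precursor rather than in its modification, had 27.4, 17.2, 16.4, 18.4 and 22.2 CPM in EZH2nHom saline, against 18.2, 15.3, 16.3, 23.1 and 11.1 CPM in WT saline libraries. Its groups overlapped, as did those of Snora73b at 9.27 to 17.1 CPM in EZH2nHom saline and 9.86 to 18.5 CPM in WT saline libraries, and neither was called.

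Of the box C/D RNAs, Snord17, a guide for the large-subunit ribosomal RNA, had 22.3, 20.6, 12.9, 19.9 and 18.3 CPM in EZH2nHom saline, against 7.25, 8.01, 9.15, 4.93 and 5.43 CPM in WT saline libraries. All EZH2nHom libraries were higher, with a log2 change of 1.44 ± 0.31 (adjusted p = 0.00401, edgeR). Snord94, a guide for the U6 spliceosomal RNA in human, had 1.90, 1.41, 1.16, 0.913 and 1.55 CPM in EZH2nHom saline, against 4.32, 3.46, 5.51, 6.36 and 2.84 CPM in WT saline libraries. All EZH2nHom libraries were lower, with a log2 change of -1.70 ± 0.33 (adjusted p = 0.00202, edgeR).

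Snord15b, a further guide for the large-subunit ribosomal RNA, had 8.15, 7.20, 4.68, 6.02 and 4.61 CPM in EZH2nHom saline, against 3.35, 2.45, 4.54, 3.58 and 2.77 CPM in WT saline libraries. The groups stood just apart, but the log2 change of 0.88 ± 0.33 was not called (adjusted p = 0.0837, edgeR). The U3 RNAs Snord3b4 and Snord3a, needed for processing of the small-subunit ribosomal RNA, belong to a multicopy family, so their counts are uncertain. Snord3b4 ran from 0.711 to 4.87 CPM in EZH2nHom saline and from 0.269 to 2.39 CPM in WT saline libraries, a log2 change of 1.58 ± 0.60 that was not called (adjusted p = 0.0899, edgeR). Snord3a was at 1.16 to 3.62 CPM in EZH2nHom saline and at 0 to 2.32 CPM in WT saline libraries, and was not called either.

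Of the 58 family genes below the read minimum, 6 had enough reads to be tested. The filter also keeps a gene that has enough reads in a single genotype. Snora81 and Snora23 passed it through EZH2nHom libraries and Snora78 through WT libraries. Their values between genotypes are thus given as description and not as support for a difference. Snora81 had 12 to 57 reads in each EZH2nHom saline library and 0 in each WT saline library, so that its mean of 1.11 CPM was at least 11.7-fold higher than the floor of 3 reads per WT library (counting error only). Snora23 averaged 0.667 CPM in EZH2nHom saline and 0.0897 CPM in WT saline libraries (log2 change 2.80 ± 0.55, adjusted p = 0.00204, edgeR). Snord22 averaged 0.336 CPM in EZH2nHom saline and 0.951 CPM in WT saline libraries, a fall of the log2 level by 1.48 ± 0.48 (adjusted p = 0.0482, edgeR). Snora7a, Snora78 and Snord15a were not called.

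After kainate, 5 members were called between the genotypes: Scarna10 and Snora74a were higher in EZH2nHom, and Scarna2, Scarna13 and Snord94 lower. Of all genes 7.61% were called, 4.56% as higher and 3.04% as lower. The groups did not overlap for 1 member, Scarna10, against 4.13% of all genes higher and 3.13% lower without overlap. The median log2 change was 0.31 over the members and 0.00 over all genes. The median standard error of the members was 0.325 log2 units here and 0.311 after saline.

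Scarna10 had 408, 678, 591 and 757 CPM in EZH2nHom kainate libraries 1 to 4, against 86.35, 243, 158, 254 and 184 CPM in WT kainate libraries 1 to 5. All 4 were higher, with a log2 change of 1.72 ± 0.26 (adjusted p = 0.00134, edgeR). Snora74a had 20.1, 27.3, 31.5 and 50.01 CPM in EZH2nHom kainate, against 5.28, 11.96, 8.45, 24.1 and 10.5 CPM in WT kainate libraries. Only EZH2nHom library 1 fell within the WT range, below WT library 4, and the log2 change was 1.42 ± 0.35 (adjusted p = 0.0215, edgeR).

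Scarna2 had 15.7, 11.3, 20.4 and 33.5 CPM in EZH2nHom kainate, against 33.05, 44.3, 35.9, 39.3 and 53.3 CPM in WT kainate libraries. EZH2nHom library 4 just overlapped the lowest WT library, and the log2 change was -1.02 ± 0.22 (adjusted p = 0.0103, edgeR). Scarna13 had 65.0, 71.0, 69.1 and 92.5 CPM in EZH2nHom kainate, against 94.8, 108, 86.8, 99.9 and 121 CPM in WT kainate libraries, a log2 change of -0.46 ± 0.12 (adjusted p = 0.0248, edgeR). Snord94 had 1.23, 1.65, 2.24 and 3.75 CPM in EZH2nHom kainate, against 2.81, 3.90, 4.54, 7.65 and 7.59 CPM in WT kainate libraries, a log2 change of -1.25 ± 0.35 (adjusted p = 0.0341, edgeR). For both, the highest EZH2nHom library was number 4.

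The remaining 7 members were not called after kainate. Snord15b, at 4.34, 4.44, 6.74 and 14.4 CPM in EZH2nHom kainate, against 2.59, 3.79, 3.81, 8.08 and 3.99 CPM in WT kainate libraries, had a log2 difference of 0.76 ± 0.34 (adjusted p = 0.183, edgeR). Without EZH2nHom kainate library 4 that difference was 0.22, and without WT kainate library 4 it was called at 1.08 (adjusted p = 0.0378, edgeR). Of the 6 tested genes below the read minimum, 2 were called, and both had passed the filter only through the genotype where they were higher. Snora81 was higher, at 0.619 CPM in EZH2nHom kainate and 0.0263 CPM in WT kainate libraries (adjusted p = 0.0113, edgeR), the WT kainate libraries holding 4 reads in all. Snora78 was lower, at 0.0781 CPM in EZH2nHom kainate and 0.544 CPM in WT kainate libraries (log2 change -2.76 ± 0.56, adjusted p = 0.00807, edgeR). These calls rest on a spread estimated over all 4 groups: fitted to the 9 kainate libraries alone, 4 genes in all and 0 members were called, with an adjusted p of 0.13 for Scarna10 and a log2 change still at 1.72. Scarna13 was not called without WT kainate library 2 or 5 or EZH2nHom kainate library 3 (adjusted p from 0.0524 to 0.0644, edgeR), Snord94 not without WT kainate library 4 or 5 or EZH2nHom kainate library 1, 2 or 3 (adjusted p from 0.0513 to 0.082, edgeR), and Snora74a not without EZH2nHom kainate library 4 (log2 change 1.13, adjusted p = 0.0608, edgeR).

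**Figure D3:**
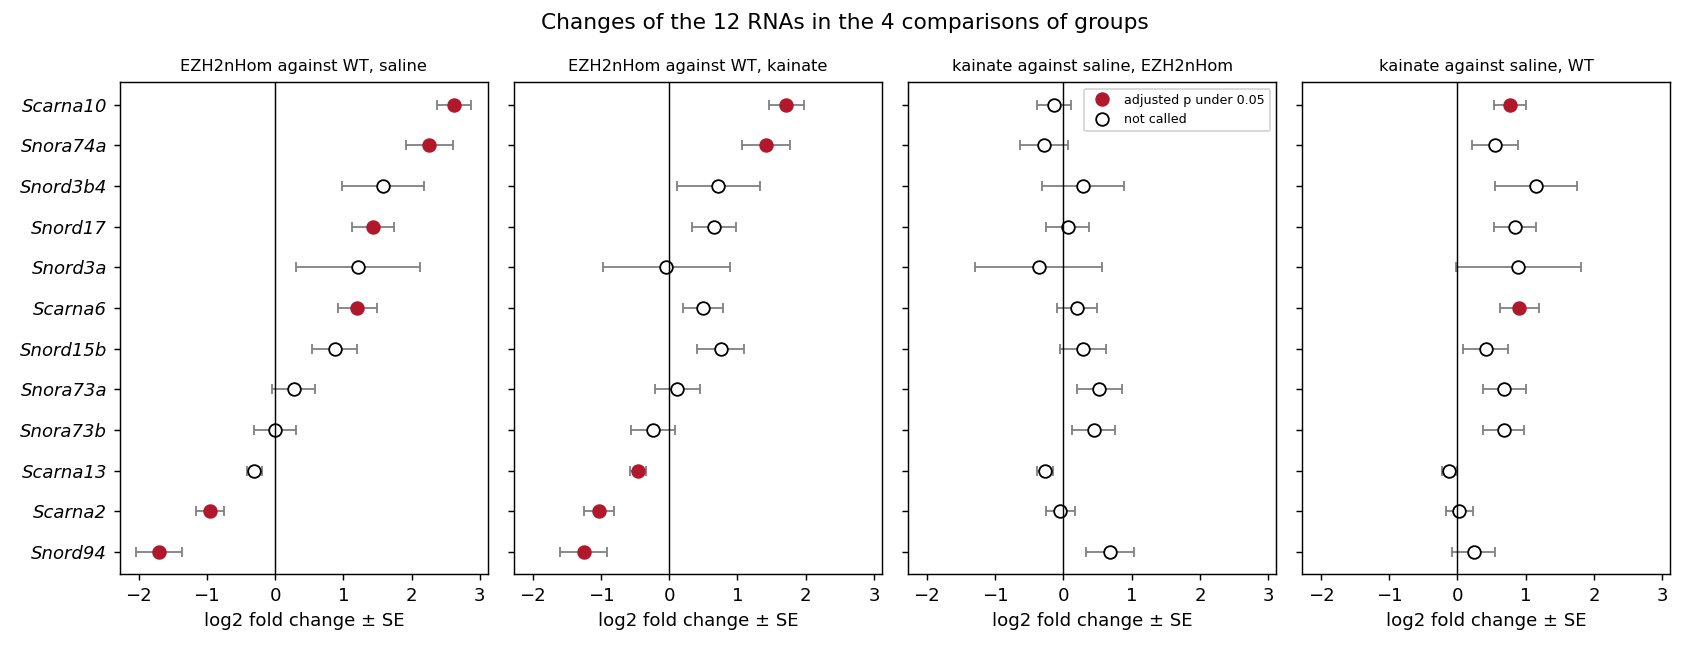
Log2 fold change ± SE of the 12 RNAs in the 4 comparisons of groups, from the fit to all 19 libraries, ordered by the change after saline; filled points had an adjusted p under 0.05. The genotype panels hold values in both directions, from 2.62 for Scarna10 to -1.70 for Snord94 after saline, and the kainate panels lie nearer to 0.

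Kainate against saline was tested within each genotype. In EZH2nHom libraries 0 of the 12 members were called in either direction, by edgeR or by DESeq2, whereas 26.1% of all genes were called, 14.3% as higher and 11.8% as lower. The median standard error was 0.325 log2 units over the members and 0.182 over all genes, so changes of equal size were harder to call for the members. Scarna13 was the one member at an unadjusted p under 0.05, with the kainate and saline values given above and a log2 change of -0.27 ± 0.12 (adjusted p = 0.0965, edgeR), and it was called without EZH2nHom kainate library 4 (log2 change -0.40, adjusted p = 0.0211, edgeR), while without library 1 the change was -0.18. The other 11 had log2 changes between -0.36 and 0.68. No member had groups without overlap, against 9.93% of all genes higher and 9.23% lower.

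In WT libraries, Scarna10 and Scarna6 were higher after kainate and 0 members lower, where 12% of all genes were called, 9.47% as higher and 2.57% as lower. Scarna10 rose to the WT kainate values above, 185 ± 68.0 CPM, against 108 ± 25.8 CPM in WT saline libraries (SD, n = 5 each, edgeR log2 change 0.77 ± 0.24, adjusted p = 0.0424). Scarna6 had 4.29, 11.96, 7.69, 13.8 and 10.6 CPM in WT kainate libraries, against the WT saline values above (log2 change 0.90 ± 0.28, adjusted p = 0.0441, edgeR). WT kainate library 1 lay within the saline range for both RNAs, so no member had groups without overlap, against 9.79% of all genes higher and 4.63% lower. Of the 12 members 11 had a positive log2 change, with a median of 0.68 against -0.02 over all genes.

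Both WT kainate calls sat close to the threshold. They were lost in the fit to the 10 WT libraries alone (adjusted p = 0.0712 for Scarna10 and 0.0563 for Scarna6, edgeR) and when WT saline library 1, 3, 4 or 5 or WT kainate library 2, 3, 4 or 5 was left out, with adjusted p up to 0.143. At least 1 of the 2 was also lost without any EZH2nHom saline library or without EZH2nHom kainate library 3 (adjusted p from 0.0507 to 0.053, edgeR). Within the sample code prefixes found in both WT arms, Scarna10 had 243, 158 and 254 CPM in WT kainate libraries 2, 3 and 4 against 138 CPM in WT saline library 2, and 86.35 CPM in WT kainate library 1 against 70.6 CPM in WT saline library 4. Scarna6 had 11.96, 7.69 and 13.8 against 6.79 CPM, and 4.29 against 3.12 CPM, in the same libraries. With the prefixes as a block over these 6 libraries, the log2 changes were 0.50 and 0.60 and neither was called.

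Snord17, Snora73a and Snora73b had unadjusted p under 0.05 in WT libraries without being called by edgeR in the fit to all libraries; the DESeq2 Wald test called Snord17 (adjusted p = 0.0413), and without WT kainate library 1 edgeR called Snord17 and Snora73a (adjusted p = 0.0309 and 0.0415). Snord17 had 6.72, 9.49, 11.2, 27.0 and 8.12 CPM in WT kainate libraries, a log2 difference of 0.84 ± 0.31 from WT saline (adjusted p = 0.0835, edgeR), with library 4 far above the other 4. Without WT kainate library 4 the log2 difference was 0.35 for Snord17, 0.41 for Snora73a and 0.40 for Snora73b. Snora73a had 11.2, 23.0, 20.8, 45.9 and 34.4 CPM in WT kainate and 16.9, 23.3, 29.2 and 47.8 CPM in EZH2nHom kainate libraries. Its log2 difference from saline was 0.68 ± 0.31 in WT libraries (adjusted p = 0.186, edgeR) and 0.53 ± 0.33 in EZH2nHom libraries (adjusted p = 0.257, edgeR), and its kainate libraries spread more than its saline libraries in both genotypes.

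The kainate responses of the genotypes were compared directly. The difference, EZH2nHom minus WT, was called for 0 of the 12 members and for 0 of all genes (0%, 0% higher and 0% lower) by edgeR, and for 0 members by DESeq2. Scarna10 had the one unadjusted p under 0.05, with a difference of -0.90 ± 0.35 log2 units (adjusted p = 0.504, edgeR). The values for the other 11 ran from -1.25 to 0.44. Of the 12 differences 11 were negative, with a median of -0.47 against -0.02 over all genes and a median standard error of 0.449. A difference in response was thus not detectable at this precision, and the genotype differences after saline and after kainate were not shown to differ.

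Library differences within a group ran through most members together. EZH2nHom kainate library 4 held the highest value of its group for 12 of the 12 members, and library 1 the lowest for 9. EZH2nHom saline library 1 was highest for 9 and library 3 lowest for 8. WT kainate library 4 was highest for 9 and library 1 lowest for 10. In WT saline libraries no library was highest for more than 3. Members and libraries are thus not independent of each other, and the 12 values of a comparison are not 12 separate observations.

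Host genes gave a second reading of the same loci. By GENCODE M21, 9 of the members lay within a gene on the same strand that could be tested: Scarna10 in Ncapd2 (a condensin subunit), Scarna13 in Snhg10, Scarna6 in Atg16l1 (autophagy), Snora74a in Snhg4, Snora73a and Snora73b in Rcc1 (a chromatin-bound exchange factor for the GTPase Ran), Snord17 in Snx5 (a sorting nexin), Snord15b in Rps3 (a ribosomal protein) and Snord94 in Ptcd3 (a mitochondrial ribosome-associated protein). Snora73a and Snora73b also lay in Snhg3, where Snora73a overlapped an annotated exon. Scarna2 and Snord3a lay in no such gene. Scarna10, Snora74a, Snord15b and Snord94 overlapped an annotated exon of the host, where reads of the pair cannot always be told apart.

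After saline, the host changes between genotypes ran from -0.35 to 0.32 log2 units, and 1 of the 9 pairs had a called host. Ncapd2 differed by -0.04 ± 0.16 log2 units, beside 2.62 for Scarna10, and Snhg4 by 0.05 ± 0.12, beside 2.26 for Snora74a. Snx5 differed by 0.16 ± 0.12, Atg16l1 by 0.13 ± 0.15, Rps3 by 0.00 ± 0.10, Snhg10 by -0.35 ± 0.34 and Rcc1 by -0.13 ± 0.13 log2 units, none of them called. Ptcd3 was higher in EZH2nHom (log2 change 0.32 ± 0.08, adjusted p = 0.00896, edgeR) where Snord94 was lower. After kainate 0 hosts were called between the genotypes by edgeR, with values from -0.20 to 0.40; 1 of the 8 host genes, Atg16l1, had an unadjusted p under 0.05 (adjusted p = 0.131), and DESeq2 called 0.

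With kainate, edgeR called 5 of the 8 host genes in EZH2nHom libraries, where 26.1% of all genes were called, and 4 of the 8 in WT libraries, where 12% were. Rcc1 is host to a pair of members, and 0 members were called in EZH2nHom libraries. Ncapd2 rose in EZH2nHom libraries (log2 change 0.85 ± 0.17, adjusted p = 0.00123, edgeR) beside -0.13 ± 0.25 for Scarna10, and in WT libraries (0.69 ± 0.16, adjusted p = 0.00766, edgeR) beside 0.77 ± 0.24. Snx5 rose by 0.52 ± 0.12 in EZH2nHom libraries and by 0.55 ± 0.12 in WT libraries (adjusted p = 0.00427 and 0.00404, edgeR). Rcc1, a host of both Snora73 copies, rose by 0.58 ± 0.14 and 0.44 ± 0.13 (adjusted p = 0.00389 and 0.0314, edgeR). Snhg3, in which both copies also lie, was not called in either genotype (0.49 ± 0.27 and 0.02 ± 0.26, adjusted p = 0.194 and 0.974, edgeR). Ptcd3 fell in EZH2nHom libraries (log2 change -0.35 ± 0.08, adjusted p = 0.00418, edgeR), Rps3 rose there (0.32 ± 0.10, adjusted p = 0.028, edgeR), and Snhg4 fell in WT libraries (-0.39 ± 0.12, adjusted p = 0.0365, edgeR).

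**Figure D4:**
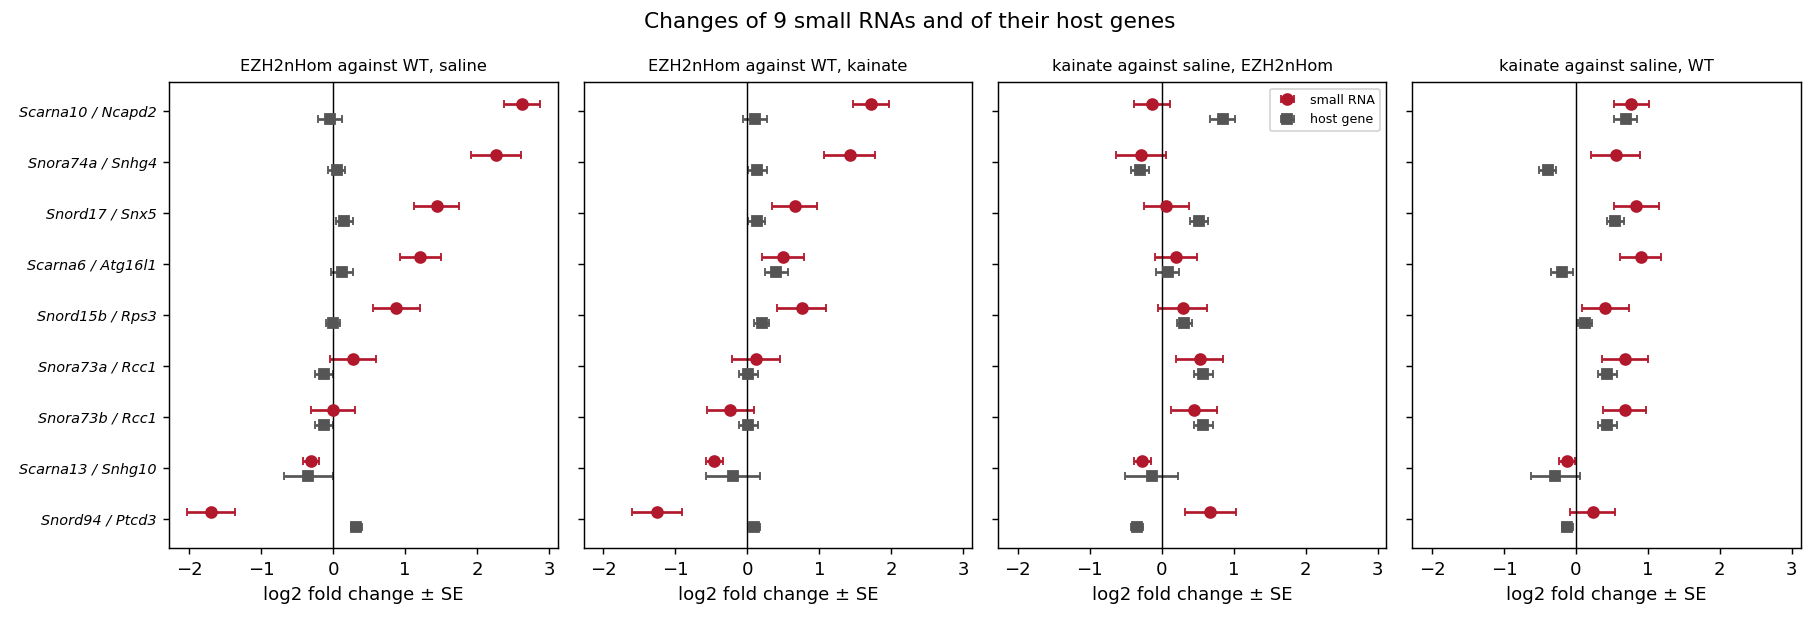
Log2 fold change ± SE of 9 small RNAs (circles) and of the host gene each lies in (squares), in the 4 comparisons of groups. After saline the hosts lie between -0.35 and 0.32 while the RNAs lie between -1.70 and 2.62; after kainate in EZH2nHom libraries the host Ncapd2 lies at 0.85 and Scarna10 at -0.13.

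The transcripts of proteins that bind and assemble these RNAs were read from 3 lists. Here and below, a protein named or counted stands for the RNA level of its gene, and protein levels were not measured. Of 13 tested proteins of the box C/D particle and its assembly, 3 were higher and 0 lower in EZH2nHom after saline, where 8.33% of all genes were called as higher: the assembly factor Rpap3 (log2 change 0.52 ± 0.11, adjusted p = 0.00336, edgeR) and the core proteins Nop56 (0.47 ± 0.11, adjusted p = 0.00736, edgeR) and Nop58 (0.39 ± 0.12, adjusted p = 0.0304, edgeR). The methyltransferase Fbl was not among them. Of 9 box H/ACA proteins 3 were higher and 0 lower, the core protein Nhp2 (0.45 ± 0.09, adjusted p = 0.0025, edgeR), the pseudouridine synthase Dkc1 and the RNA 3′-end polymerase Tent4b (0.24 ± 0.08 and 0.36 ± 0.12, adjusted p = 0.0485 and 0.0482, edgeR). With DESeq2 size factors in place of TMM, 1 of the 9 was called. Of 10 Cajal body and nucleolar chaperone proteins 4 were higher and 0 lower, Larp7 (0.63 ± 0.08, adjusted p = 3.8e-05, edgeR), which works with U6 RNA, Npm1 (0.61 ± 0.09, adjusted p = 0.000146, edgeR), Smn1 and Nolc1 (0.51 ± 0.14 and 0.31 ± 0.09, adjusted p = 0.0235 and 0.0313, edgeR). The median log2 changes of the 3 lists were 0.21, 0.11 and 0.22.

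After kainate, transcripts of 2 of the 13, 1 of the 9 and 2 of the 10 proteins were higher in EZH2nHom and 0 lower: Rpap3 (0.60 ± 0.12) and Nop56 (0.39 ± 0.12), Nhp2 (0.35 ± 0.10), and Npm1 (0.46 ± 0.09) and Larp7 (0.33 ± 0.08 log2 units), with adjusted p from 0.0057 to 0.0472 in edgeR. Of all genes 4.56% were called as higher and 3.04% as lower in that comparison. Kainate in WT libraries called 0 proteins of the 3 lists in edgeR, where 1 of the 13, 0 of the 9 and 0 of the 10 had an unadjusted p under 0.05; DESeq2 called that 1. In EZH2nHom libraries kainate called 1 higher and 2 lower of 13 (Fbl 0.43 ± 0.13, Ruvbl1 -0.32 ± 0.11 and Snu13 -0.32 ± 0.08 log2 units), 0 of 9, and 1 higher and 2 lower of 10 (Eaf1 0.52 ± 0.14, Nolc1 -0.28 ± 0.10 and Larp7 -0.23 ± 0.08 log2 units). Of all genes kainate called 26.1% in EZH2nHom libraries, 14.3% as higher and 11.8% as lower, and 12% in WT libraries.

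Of 33 tested host transcripts of small nucleolar RNAs in general, a list that holds Nop56, Dkc1 and Ncl as well, 10 were higher and 1 lower in EZH2nHom after saline, against 8.33% and 5.16% of all genes. The 4 with the smallest p were Hspa8 (0.43 ± 0.08 log2 units, adjusted p = 0.000896), Snhg5 (0.79 ± 0.15, adjusted p = 0.0016), Gas5 (0.52 ± 0.10, adjusted p = 0.00224) and Nop56 in edgeR. After kainate 7 were higher in EZH2nHom and 0 lower, against 4.56% and 3.04% of all genes, among them Snhg5 (0.88 ± 0.16 log2 units), Gas5 (0.52 ± 0.11), Taf1d (0.78 ± 0.17) and Snhg15 (0.94 ± 0.22), with adjusted p from 0.00374 to 0.0161 in edgeR. Kainate called 4 higher (among them Rcc1, Rpl13a and Rps3) and 2 lower (Eif4a2 and Prkaca) of the 33 in EZH2nHom libraries, where 26.1% of all genes were called, and 1 higher (Rcc1) and 1 lower (Snhg4) in WT libraries, where 12% were.

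Other small structural RNAs were tested beside the members. Of 9 tested, 5 were higher in EZH2nHom after saline and 0 lower, with a median log2 change of 2.09, where 8.33% of all genes were higher and 5.16% lower. Rpph1, the RNA of ribonuclease P, had 1425, 1397, 1446, 6930 and 5977 CPM in EZH2nHom saline, against 189, 193, 222, 148 and 376 CPM in WT saline libraries (log2 change 3.93 ± 0.66, adjusted p = 0.000825, edgeR). Rnu12, an RNA of the minor spliceosome, was higher by 3.22 ± 0.53 log2 units, Rn7s6 by 2.50 ± 0.33 and Bc1, a neuronal RNA of dendrites, by 2.09 ± 0.43 (adjusted p from 6e-05 to 0.0027, edgeR). Rnu11, also of the minor spliceosome, was called too, at 2.92 ± 0.56 log2 units. It passed the filter only through EZH2nHom libraries, with at most 0.157 CPM in any WT library. Its value and its place among the 5 are thus description and not support for a difference. Rny1, Rny3 and both Rmrp genes were not called. After kainate, Rnu12 (2.31 ± 0.52) and Rn7s6 (1.39 ± 0.32) were higher in EZH2nHom, and after kainate Rpph1 (2.01 ± 0.61) and 1 Rmrp gene (1.06 ± 0.34 log2 units) were higher than after saline in WT libraries and 0 of the 9 were called in EZH2nHom libraries in edgeR (0 at an unadjusted p under 0.05, and 0 in DESeq2), adjusted p from 0.0135 to 0.0473. Of all genes 4.56% were higher in EZH2nHom after kainate. EZH2nHom kainate library 4 had 7.47 CPM of Rnu12 and 6.065 CPM of Rn7s6, against 1.06 to 2.31 and 1.91 to 2.59 CPM in the rest of its group. For both RNAs the lowest EZH2nHom kainate library stayed just above the highest WT kainate library. Library 4 was also the highest of its group for Rpph1, both Rmrp genes, Rny1, Rny3, Rnu11 and Bc1. Kainate raised 9.47% of all genes in WT libraries and called 26.1% in EZH2nHom libraries. The part of small-RNA recovery, through the column clean-up of the RNA, the ribosomal RNA depletion or the library preparation, in the genotype difference of the members was not tested. After saline Scarna2 and Snord94 were lower in EZH2nHom while Rpph1, Rnu12, Rn7s6 and Bc1 were higher.

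Of 21 cell type markers, edgeR and DESeq2 called 0 between the genotypes after saline, and 4 had an unadjusted p under 0.05. In edgeR 13.5% of all genes were called in that comparison, and 7.61% between the genotypes after kainate. The neuronal genes Rbfox3, Snap25 and Syt1 nevertheless summed to 2649 to 3093 CPM in EZH2nHom saline libraries and to 2123 to 2472 CPM in WT saline libraries, ranges that did not overlap. Singly, Snap25 and Syt1 were higher without overlap, and Rbfox3 overlapped (71.9 against 59.2 CPM). Of all genes, 12.9% were higher and 8.42% lower without overlap. Other neuronal markers went both ways: Gad1 was lower without overlap (237 against 281 CPM) and Prox1 lower (88.65 against 113.6 CPM). Slc17a7 was near equal (434 against 440 CPM), and Gad2 (192 against 174 CPM) and Calb1 (120.7 against 113.6 CPM) were slightly higher. Of the microglial genes, Csf1r (78.5 against 106 CPM) and Cx3cr1 (48.6 against 59.7 CPM) were lower without overlap. P2ry12 had the higher mean in EZH2nHom, with overlap (63.1 against 48.7 CPM). After kainate, 2 of the 21 were called between the genotypes, the haemoglobin genes Hbb-bs (log2 change -2.01 ± 0.47, adjusted p = 0.0166, edgeR) and Hba-a1 (-1.95 ± 0.51, adjusted p = 0.0264, edgeR). Their summed level was 79.5 to 308 CPM in EZH2nHom kainate and 382 to 1339.8 CPM in WT kainate libraries.

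With kainate, 5 of the 21 markers were higher and 7 lower in EZH2nHom libraries, and 8 were higher and 3 lower in WT libraries. Of all genes 14.3% were higher and 11.8% lower in EZH2nHom libraries, and 9.47% were higher and 2.57% lower in WT libraries. The 3 astrocyte genes, among them Gfap, summed to 3316 to 6156 CPM in EZH2nHom kainate and 581 to 786 CPM in EZH2nHom saline libraries, and to 2455 to 5378 CPM in WT kainate and 671 to 753 CPM in WT saline libraries. The 3 microglial genes, among them Csf1r, summed to 293 to 747 CPM in EZH2nHom kainate and 169.9 to 203 CPM in EZH2nHom saline libraries, and to 357 to 849.7 CPM in WT kainate and 202 to 230.2 CPM in WT saline libraries. The part of these shifts in the values of the members was not tested.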

How the data were processed

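Right hippocampi were flash frozen, RNA was extracted with Trizol and cleaned on RNeasy Mini columns, and libraries were made after depletion of cytoplasmic and mitochondrial ribosomal RNA, per the labels' protocols. The authors deposited whole-number read counts per Ensembl gene. Their second table holds the counts divided by size factors (signal), log2 fold changes, a test score and p-values, per the file headers, and was used for gene symbols and to check that its signal is the counts divided by 1 factor per library (values above 10, largest relative deviation 5.1e-10). The submitters' processing notes name mm39, DESeq2 and DESeq; aligner, counting program, annotation release and strand setting are not given in the sources used here, so reads of an RNA and an overlapping host or antisense gene cannot be told apart.

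Counts were tested in R 4.3.3 with edgeR 4.0.16 and limma 3.58.1: filterByExpr by group (19234 genes kept), TMM scaling, and a robust quasi-likelihood fit of 4 group means to all 19 libraries, with 5 two-sided contrasts. A gene was called at an adjusted p under 0.05 (Benjamini-Hochberg over all genes tested). DESeq2 1.42.0 was an alternative. The SE is the log2 change divided by the square root of the F statistic. CPM uses the library total times its TMM factor; floors of 3 reads cover counting error only. The fit was tested on simulated data.

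The members and gene lists were chosen with earlier results of these data known. Values in every library are given for the 2 members of highest mean CPM in each class and for up to 4 called members with the smallest p in each comparison; list genes are named when called, up to 4 per list and comparison, except 1 gene of the host transcript list, which is counted but not reported here. Sequences, lengths and hosts came from GENCODE M21, matched by gene ID for 10 members and by symbol for 1. It is of another build than the files, so no coordinates are given; hosts were planned for an annotation of the files' build alone, and their use here departs from that plan. Where a member lay in several genes, the host of highest mean CPM was used. The 4 EZH2nHom kainate libraries carry the numbers of their titles, 1 to 4. The submitters' column names number each of them 1 higher.

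Alternatives were DESeq2 size factors, small RNAs left out of scaling, no filter and a stricter filter, an adjusted p under 0.01, the DESeq2 Wald test, a fit to the groups compared, the replicate number as a block, a covariate from Y-linked genes, leaving out each library and, chosen after seeing the data, the sample code prefix as a block.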

Additional observations from a re-analysis of the deposited data

Results flagged for a closer look

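In 48 combinations of member and group, 3 values stood far from the rest of their group by Dixon's ratio, and chance gives about 1 in 20. Snord17 was 28.1 CPM in EZH2nHom kainate library 4, against 16.5 to 17.5 CPM in the other 3. It was 27.0 CPM in WT kainate library 4, against 6.72 to 11.2 CPM in the other 4, and Snord15b in that library was 8.08 CPM, against 2.59 to 3.99 CPM. The difference of kainate responses between the genotypes was called for 0 members in edgeR and in DESeq2, and 1 had an unadjusted p under 0.05.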

How the results depend on the processing

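The 6 genotype calls after saline stayed called under every alternative run, which called 6 to 8 members. Leaving out a library gave 6 to 8, and log2 changes of 2.45 to 2.71 for Scarna10. Members that gained a call there were Scarna13 in 9 alternatives (the DESeq2 Wald test, the fit to the groups compared, the replicate block and without WT kainate library 1, 2 or 3, EZH2nHom saline library 1 or EZH2nHom kainate library 1 or 4; adjusted p down to 0.0012), Snord15b in 4 (the fit to the groups compared, the replicate block and without WT kainate library 4 or EZH2nHom kainate library 4) and Snord3b4 in 2 (the DESeq2 Wald test and without WT saline library 5). The other comparisons depended more on the settings. After kainate, the 5 genotype calls became 1 at an adjusted p under 0.01 and 0 in the fit to the groups compared and with the replicate block, and 3 to 6 when a library was left out. The 2 WT kainate calls became 0 with no filter, at an adjusted p under 0.01, in the fit to the groups compared, with the replicate block, with the Y-linked covariate and with the prefix block, and 0 to 4 when a library was left out; in EZH2nHom libraries the range was 0 to 1. The difference of responses stayed at 0 members throughout, and the fit to the groups compared is the main fit there. Summed levels moved by less than 1 SD. No single-member value named as a result turned its direction.

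Same-numbered libraries deviated together with correlations of -0.055 to 0.09 in EZH2nHom, 0.077 to 0.309 in WT, 0.027 to 0.354 between saline groups and -0.086 to 0.407 between kainate groups, so the numbers were not taken to pair samples. For EZH2nHom kainate libraries the title numbers used here are shifted from the submitters' column numbers. In comparisons with that group, the correlations and the replicate block thus could not test a pairing by column number. The replicate block left 0 members called in each kainate comparison and 8 between the saline groups. With it, box C/D proteins called were 0 (EZH2nHom kainate), 4 (WT kainate), 5 (genotype, saline) and 0 (genotype, kainate), H/ACA and Cajal proteins 0 (genotype, kainate), Cajal proteins 0 (EZH2nHom kainate), host transcripts 0, 6, 17 and 0 in the 4 comparisons, and structural RNAs 4 (WT kainate) and 0 (genotype, kainate).

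In the fit to the groups compared, box C/D proteins called were 0, 3, 5 and 0 in the same 4 comparisons, Cajal proteins 1 in EZH2nHom kainate, host transcripts 3 and 7 in the kainate comparisons of EZH2nHom and WT, and every list had 0 between genotypes after kainate. At an adjusted p under 0.01, EZH2nHom kainate had 1 box C/D protein, 0 Cajal proteins and 3 hosts, WT kainate 0 hosts and 0 structural RNAs, genotype after saline 1 H/ACA protein, 2 Cajal proteins and 4 hosts, and genotype after kainate 1, 0, 1, 2 and 0 box C/D, H/ACA and Cajal proteins, hosts and structural RNAs. With no filter, genotype after saline had 1 H/ACA protein, 2 Cajal proteins and 7 hosts, genotype after kainate 0 H/ACA proteins and 1 Cajal protein, EZH2nHom kainate 1 Cajal protein, and WT kainate 0 hosts and 0 structural RNAs, as with the prefix block. H/ACA proteins called after saline were 1 with DESeq2 size factors, the stricter filter and the Y-linked covariate. EZH2nHom kainate called 1 Cajal protein with DESeq2 size factors and with the Y-linked covariate, which also called 2 Cajal proteins (genotype, saline), 1 box C/D protein (genotype, kainate) and 10 hosts (EZH2nHom kainate). The DESeq2 Wald test called 1 and 4 box C/D proteins (WT kainate; genotype, kainate) and 10 hosts (EZH2nHom kainate).

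Leaving out a library gave, in the order EZH2nHom kainate, WT kainate, genotype after saline and genotype after kainate, 2 to 6, 0 to 3, 2 to 4 and 1 to 4 box C/D proteins, 0 to 1, 0 to 0, 1 to 3 and 0 to 2 H/ACA proteins, 1 to 5, 0 to 0, 2 to 5 and 1 to 2 Cajal proteins, 4 to 10, 0 to 7, 5 to 14 and 4 to 11 hosts, and 0 to 3, 0 to 3, 5 to 6 and 2 to 3 structural RNAs. The cause of these shifts was not tested.

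All genes called were 5012 for kainate in EZH2nHom against 2815 at an adjusted p under 0.01, 3066 in the fit to the groups compared and 2151 with the block, 2316 for kainate in WT against 1083 at an adjusted p under 0.01 and 0 with the prefix block, 2596 for genotype after saline against 1212, 5604 and 6457, and 1463 for genotype after kainate against 284, 4 and 1, and 959 with no filter. The difference of responses was called for 0 genes against 12 in the DESeq2 Wald test, 1 with the block and up to 4 without a library. Leaving out a library gave 3864 to 6096, 1365 to 3414, 1675 to 4295 and 670 to 2193 genes in the other 4 comparisons, in the order above. Depth limits the U3 RNAs and the genes under the read minimum: Snord3a had 0 reads in WT saline library 4 and EZH2nHom kainate library 2.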
